A study of Homo sapiens with 6 samples.

Results

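The condensin complexes of human cells are built from 8 protein subunits, and the mRNA of each was followed here in ZR-75-1 cells, an established ER-positive breast cancer line. The members were chosen by name and matched by Ensembl identifier, as SMC2 and SMC4 (shared by both complexes), NCAPD2, NCAPG and NCAPH (condensin I) and NCAPD3, NCAPG2 and NCAPH2 (condensin II). They are 8 of the 60656 genes counted, and all 8 were among the 10863 genes with enough counts for a test. The cells were the parental line, grown in RPMI-1640 with 10% FBS, and received either DMSO, the solvent control, or 500 nM abemaciclib, an inhibitor of the cell cycle kinases CDK4 and CDK6, for 4 days. Each group had 3 libraries, and no cells with an RB1 knockout are analysed here. All values come from a single cell line, and in such bulk RNA fewer cells of a type, or of a cell cycle phase, and less RNA per cell cannot be told apart.

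Condensins are ring-shaped ATPases that fold DNA into loops and compact chromosomes for mitosis. SMC2 and SMC4 form the ATPase arms of both rings. A kleisin subunit (NCAPH in condensin I, NCAPH2 in condensin II) closes the ring, and a pair of HEAT-repeat subunits (NCAPD2 and NCAPG, or NCAPD3 and NCAPG2) bind it and DNA. Condensin II resides in the nucleus through interphase, whereas condensin I is largely cytoplasmic until the nuclear envelope breaks down. Mitotic kinases, CDK1 among them, phosphorylate both.

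Libraries held between 3317860 and 4013156 counts on genes. Each count stands for the 3′ end of a polyadenylated transcript, so counts do not scale with transcript length. Levels of genes are given as CPM, the count of a gene scaled to a common library total, after TMM scaling between libraries. The limit on 0 counts and the marker sums that follow use library totals alone, without TMM scaling. With 0 counts in a library, a gene may still reach 0.748 to 0.904 CPM, counting error alone considered. The 7 luminal epithelial markers summed to between 6611 and 7239 CPM with DMSO and between 7343 and 8608 CPM with abemaciclib, with none at 0. KRT19 and GATA3 made up most of this sum, and single markers did not all move alike. ESR1 had 741, 759 and 632 counts with DMSO and 1271, 1600 and 1259 with abemaciclib. KRT18 had 2508, 2300 and 2171 counts with DMSO and 1685, 2207 and 2124 with abemaciclib. Of 11 basal, fibroblast, leukocyte and endothelial markers, 7 were at 0 in every library, among them KRT5, TP63, PTPRC and PECAM1. The 11 summed to 11.7 to 16.0 CPM with DMSO and 10.2 to 15.5 CPM with abemaciclib, nearly all of it COL1A1. Mitochondrial transcripts made up 15.6% to 16.6% of each DMSO library and 15.8% to 18.3% of each abemaciclib library, and their part in the results was not tested.

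All 8 condensin subunits fell with abemaciclib, and for all 8 every abemaciclib library lay below every DMSO library. Calls are at an adjusted P under 0.05 in edgeR's quasi-likelihood test, adjusted by the Benjamini–Hochberg method over all genes tested. Of all 10863 genes, 13.3% passed that test as lower and 12.5% as higher, and 20.1% had every abemaciclib library below every DMSO library. The median log2 fold change was −1.25 over the 8 subunits and −0.0018 over all genes. The median was −2.03 for the 3 condensin I subunits, −1.18 for the 3 condensin II subunits and −0.79 for the SMC pair. DESeq2 also called all 8 lower, against 12.0% of all genes.

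NCAPG, a HEAT-repeat subunit of condensin I (ENSG00000109805.10, chr4:17810979-17844865, plus strand, GRCh38), had the largest fall of the 8. Its levels were 75.7, 62.7 and 74.5 CPM in DMSO replicates 1, 2 and 3 and 9.38, 12.6 and 13.5 CPM in the abemaciclib replicates. Every treated library was thus far below the lowest control library. The mean went from 71.0 ± 7.20 to 11.8 ± 2.17 CPM (SD, n = 3 libraries each), which left 16.7% of the mean DMSO level (log2 fold change −2.57, SE 0.19, 95% interval −2.96 to −2.19, edgeR adjusted P = 8.91e-12). Of all genes tested, 1.23% had a lower log2 fold change. The 3′ end of NCAPG overlaps that of LCORL on the opposite strand, where LCORL was at 42.0 CPM with DMSO and 32.7 CPM with abemaciclib (log2 fold change −0.36, edgeR adjusted P = 0.121). Whether the counting used strand is not given in the sources used here, so reads in the 3679 shared bases could belong to either gene.

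NCAPD2 (ENSG00000010292.13, chr12:6493356-6531955, plus strand) is the other HEAT-repeat subunit of condensin I. It stood at 215.8, 217.7 and 221.1 CPM in the DMSO libraries and at 43.9, 65.1 and 50.3 CPM in the abemaciclib libraries. The control libraries were within a few CPM of each other, and the treated libraries were spread more widely, well below them. From 218.2 ± 2.69 to 53.1 ± 10.9 CPM (SD, n = 3 each), NCAPD2 fell by 2.03 on the log2 scale (SE 0.13, 95% interval −2.29 to −1.77, edgeR adjusted P = 4.18e-13), to 24.3% of the mean DMSO level.

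NCAPH, the kleisin of condensin I (ENSG00000121152.10, chr2:96335766-96377091, plus strand), rested on fewer reads, with 69, 88 and 65 counts in the DMSO libraries and 16, 22 and 28 in the abemaciclib libraries. These correspond to 20.0, 26.1 and 19.7 CPM and to 4.84, 5.43 and 7.57 CPM. The highest treated library was well under the lowest control. The log2 fold change was −1.87 (SE 0.29, 95% interval −2.46 to −1.29, edgeR adjusted P = 1.01e-05), or 27.1% of the mean DMSO level.

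**Figure D1:**
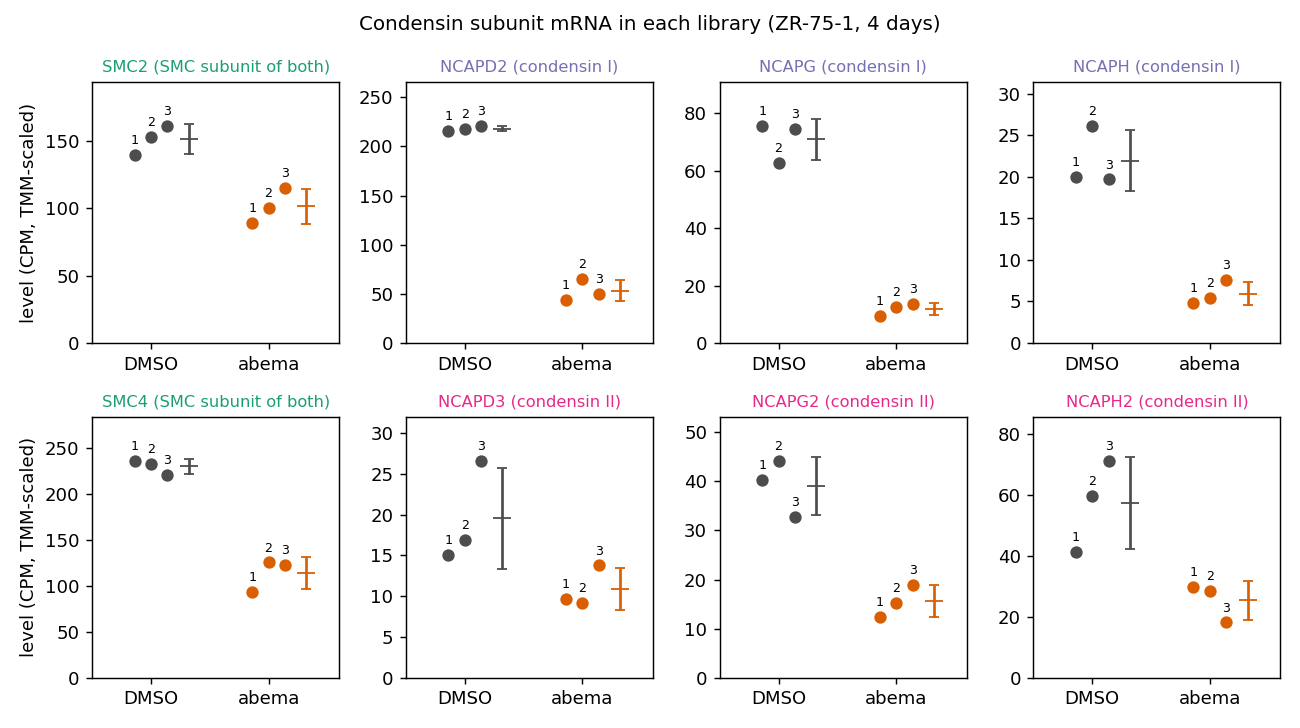
Level of each condensin subunit in every library (vertical axis, CPM after TMM scaling, starting at 0 with its own range in each panel), with replicate numbers above the points and the mean ± SD of 3 libraries beside them. In every panel the 3 abemaciclib (abema) points lie below the 3 DMSO points, by the smallest margin for NCAPD3.

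Promoter sequence was read for the subunits because the 8 moved together, and because short motifs near the start site are known from many genes of the cell cycle. RefSeq (GRCh38.p14) gave 10 windows for 7 of the 8 genes, each from 250 bases before to 50 bases after a start site. NCAPH2 had no entry. On both strands 4 motifs were searched, all chosen after the sequences were seen: the cell cycle homology region element TTTGAA, the CCAAT box CCAAT, and the E2F cores TTCCCGC and TTGGCGC. Matches to these motifs did not overlap one another in any member window. The 150 bases upstream of NCAPG (chr4:17810829-17810978, plus strand) and of NCAPH (chr2:96335616-96335765, plus strand) are shown as the condensin I pair that differs in these letters, with every motif match in capitals (GCGGGAA is TTCCCGC read on the other strand).
NCAPG: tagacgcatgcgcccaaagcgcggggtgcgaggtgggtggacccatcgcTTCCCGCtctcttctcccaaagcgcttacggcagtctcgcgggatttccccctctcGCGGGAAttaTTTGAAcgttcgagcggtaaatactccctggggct
NCAPH: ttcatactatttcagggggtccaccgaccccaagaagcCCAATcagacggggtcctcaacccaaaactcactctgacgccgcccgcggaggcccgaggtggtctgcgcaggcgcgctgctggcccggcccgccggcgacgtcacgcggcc

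The NCAPG stretch held TTCCCGC starting at −101 and, on the other strand, at −45, and TTTGAA at −35. The NCAPH stretch held CCAAT at −112 and none of the other 3 motifs. TTTGAA was found in 6 of the 10 windows, 1 for each of 6 of the 7 genes, against 15.2% of all 35116 RefSeq promoter windows of that length. CCAAT was in 3 of 10 (34.6% of all windows), TTCCCGC in 2 of 10 (6.55%) and TTGGCGC in 0 of 10 (3.04%). A match of this kind is a description of the letters in a window and does not show a bound site. The 6 TTTGAA matches are shown with up to 12 bases on each side, 5′ to 3′ on the strand of the gene, with the match in capitals (TTCAAA where it lies on the other strand). They span chr4:17810932-17810961 for NCAPG, chr12:6493945-6493974 for NCAPD2, chr11:134223953-134223982 for NCAPD3, chr7:158704755-158704781 for NCAPG2, chr3:160399563-160399592 for SMC4 and chr9:104094294-104094323 for SMC2. NCAPD3 and NCAPG2 are on the minus strand.
NCAPG: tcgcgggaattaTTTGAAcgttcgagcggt
NCAPD2: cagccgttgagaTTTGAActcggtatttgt
NCAPD3: gcgggagcgagcTTTGAAagttgagcacgg
NCAPG2: ccggcgggtgcgTTTGAAtctggtccg
SMC4: gccgcactttttTTCAAAttagtggatccc
SMC2: ctcgcgccgaaaTTCAAAggaataaatagt

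The match began 35 bases before the start site in NCAPG, 145 before in NCAPD2 and 75 before in SMC4. In NCAPD3 and SMC2 it spanned a start site, and in NCAPG2 it lay after the start site, at 36 to 41. SMC4, SMC2 and NCAPD3 each had a further start site, whose window held no TTTGAA. In NCAPD3 the match was at the start site chr11:134223967, which lies downstream of the other at chr11:134225461. Among the 7 genes with a window, the gene without the element, NCAPH, fell by 1.87 on the log2 scale. The 6 genes with it had log2 fold changes from −2.57 to −0.57. Since NCAPH alone lacked the element, these values cannot tell whether its presence goes with the size of the fall, which was not tested.

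Among the condensin II subunits, NCAPG2, the HEAT-repeat counterpart of NCAPG (ENSG00000146918.20, chr7:158631169-158704804, minus strand), fell furthest. DMSO replicates 1, 2 and 3 had 40.3, 44.3 and 32.7 CPM, and the abemaciclib replicates had 12.4, 15.3 and 18.9 CPM. No library of one group came near the other group. The mean was 39.1 ± 5.87 CPM with DMSO and 15.5 ± 3.26 CPM with abemaciclib (SD, n = 3 each), with a log2 fold change of −1.33 (SE 0.21, 95% interval −1.75 to −0.90, edgeR adjusted P = 1.71e-05). The treated level was 39.7% of the mean DMSO level.

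NCAPH2, the kleisin of condensin II (ENSG00000025770.19, chr22:50508224-50524780, plus strand), was more variable. It was at 41.2, 59.7 and 71.2 CPM in the DMSO libraries and at 29.6, 28.4 and 18.1 CPM in the abemaciclib libraries. The groups did not overlap, although the control libraries differed from each other by more than the lowest control differed from the highest treated library. NCAPH2 fell by 1.18 on the log2 scale (SE 0.20, 95% interval −1.59 to −0.76, edgeR adjusted P = 5.39e-05), to 44.2% of the mean DMSO level. Its 3′ end shares 1213 bases with SCO2, a gene on the opposite strand that averaged 62.4 CPM with DMSO and 74.9 CPM with abemaciclib (log2 fold change 0.26, edgeR adjusted P = 0.192).

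NCAPD3, the HEAT-repeat counterpart of NCAPD2 (ENSG00000151503.13 in the counts, chr11:134150113-134225504 for version ENSG00000151503.14, minus strand), gave the least firm change. Its counts were 52, 57 and 88 with DMSO and 32, 37 and 51 with abemaciclib, or 15.1, 16.9 and 26.7 CPM against 9.68, 9.13 and 13.8 CPM. The highest treated library lay 1.30 CPM under the lowest control. The log2 fold change was −0.84 (SE 0.28, 95% interval −1.41 to −0.28, edgeR adjusted P = 0.0237). That call rested on single libraries: leaving out DMSO replicate 3 ended it (log2 fold change −0.56, edgeR adjusted P = 0.211), as did leaving out abemaciclib replicate 1 (−0.77, adjusted P = 0.0681) or abemaciclib replicate 2 (−0.72, adjusted P = 0.0980).

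SMC4 (ENSG00000113810.16, chr3:160399274-160434954, plus strand), an ATPase arm of both complexes, was at 236.7, 233.2 and 221.1 CPM with DMSO and at 93.8, 125.6 and 123.2 CPM with abemaciclib. Abemaciclib replicate 1 was the lowest library, and the control libraries were close together. The level fell to 49.6% of the mean with DMSO (log2 fold change −1.01, SE 0.11, 95% interval −1.24 to −0.77, edgeR adjusted P = 7.29e-08). The 3′ end of SMC4 shares 2510 bases with TRIM59 on the opposite strand. TRIM59 averaged 4.65 CPM with DMSO and 1.91 CPM with abemaciclib (log2 fold change −1.27, edgeR adjusted P = 0.139). Its counts were 16, 15 and 16 in the DMSO libraries and 10, 11 and 0 in the abemaciclib libraries.

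SMC2 (ENSG00000136824.19, chr9:104094260-104141419, plus strand), the partner arm, had the smallest fall of the 8. Its levels were 139.5, 153.3 and 161.4 CPM with DMSO and 88.9, 100.7 and 115.1 CPM with abemaciclib. The groups stood apart, with 67.1% of the mean DMSO level left (log2 fold change −0.57, SE 0.12, 95% interval −0.81 to −0.33, edgeR adjusted P = 0.000474). Of all genes tested, 14.8% had a lower log2 fold change, so SMC2 was the subunit nearest to the bulk of the transcriptome.

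In order of log2 fold change, the subunits ran NCAPG, NCAPD2, NCAPH, NCAPG2, NCAPH2, SMC4, NCAPD3 and SMC2. All 7 neighbouring pairs of 95% intervals in this order overlapped. Overlap of separate intervals does not show that changes are alike, and differences between neighbours were not tested. Between the complexes, 6 of the 9 pairs of a condensin I and a condensin II subunit had intervals that did not overlap. These were the pairs of NCAPG and of NCAPD2, whereas the interval of NCAPH overlapped those of all 3 condensin II subunits. Abemaciclib replicate 1 was the lowest treated library for 6 of the 8 subunits, and the same share over all genes was not computed. The exceptions were NCAPD3, lowest in abemaciclib replicate 2, and NCAPH2, lowest in abemaciclib replicate 3.

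**Figure D2:**
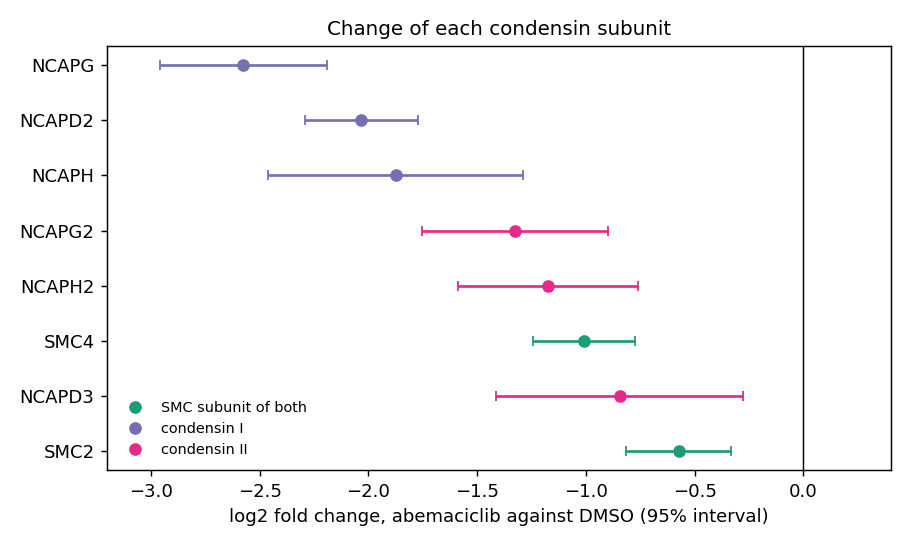
Log2 fold change of each subunit with abemaciclib against DMSO (horizontal axis), with its 95% interval from the edgeR fit as a bar and the subunits ordered by size. All 8 intervals lie below 0. The condensin I subunits are the leftmost at −2.57 to −1.87, and SMC2 is the rightmost at −0.57.

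With each subunit set against its mean over DMSO libraries, the median of the 3 condensin I subunits was −2.30, −1.90 and −2.11 (log2) in abemaciclib replicates 1, 2 and 3. That of the condensin II subunits was −0.93, −1.01 and −1.01. The condensin I median was thus the lower one in each of the 3 treated libraries, although in abemaciclib replicate 3 NCAPH2 was relatively as low as NCAPH (7.57 CPM for NCAPH and 18.1 CPM for NCAPH2). In the DMSO libraries the corresponding medians were −0.02, 0.00 and 0.02 for condensin I and −0.32, 0.09 and 0.34 for condensin II.

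Each condensin I subunit has a paralogue or counterpart in condensin II, and the log2 ratio of their counts within a library does not depend on how libraries are scaled. The ratio itself also carries how well each 3′ end is captured, so it is the change of the ratio that is compared. With 3 libraries against 3, the exact permutation test over libraries cannot go below P = 0.1, and the adjustment is over the 3 pairs. The interval of the difference between log2 fold changes, given beside it, comes from the edgeR fit and treats the errors of the paired genes as independent.

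The NCAPG to NCAPG2 log2 ratio was 0.91, 0.50 and 1.18 in the DMSO libraries and −0.40, −0.28 and −0.48 in the abemaciclib libraries. NCAPG thus had more counts than NCAPG2 in every control library and fewer in every treated library. As a share of the counts of the pair, NCAPG took 65.3%, 58.6% and 69.5% with DMSO and 43.1%, 45.1% and 41.7% with abemaciclib. The mean ratio moved from 0.86 ± 0.34 to −0.39 ± 0.10 (SD, n = 3 each), a change of −1.25 (two-sided exact permutation P = 0.1, adjusted P = 0.15). The log2 fold change of NCAPG minus that of NCAPG2 was −1.25, with a 95% interval from −1.82 to −0.67.

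The NCAPD2 to NCAPD3 log2 ratio was 3.83, 3.67 and 3.05 with DMSO and 2.16, 2.82 and 1.86 with abemaciclib, again without overlap. It changed by −1.24 (two-sided exact permutation P = 0.1, adjusted P = 0.15), and the difference between the log2 fold changes was −1.19 (95% interval −1.81 to −0.56). The kleisin pair was less clear. The NCAPH to NCAPH2 ratio was −1.04, −1.19 and −1.85 with DMSO and −2.58, −2.36 and −1.24 with abemaciclib, so abemaciclib replicate 3 lay within the control range. That change was −0.70 (two-sided exact permutation P = 0.2, adjusted P = 0.2), and the interval of the difference, −1.42 to 0.02, reached past 0. The change was −1.11 without abemaciclib replicate 3 and −0.45 without abemaciclib replicate 1. Over all genes, abemaciclib replicate 3 stood furthest from its group, with a chi-square per gene against counting error of 6.43 and 6.79. That measure was 3.39 between abemaciclib replicates 1 and 2, and 2.776 to 3.995 between DMSO libraries. The part of this spread in the ratio was not tested.

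The SMC pair, which serves both complexes, also shifted. The SMC4 to SMC2 log2 ratio was 0.76, 0.60 and 0.45 with DMSO and 0.08, 0.32 and 0.10 with abemaciclib. This ratio was added after the values were seen and is given as a description without a test. The difference between the log2 fold changes of SMC4 and SMC2 was −0.43 (95% interval −0.77 to −0.10).

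Of 28 regulators and partners of condensin, 26 were tested, of which 20 were lower, 0 were higher and 6 did not pass. Over all genes tested, 13.3% were lower and 12.5% higher. DESeq2 called 19 lower and 0 higher, and 0 were higher at an unadjusted P under 0.05. Their median log2 fold change was −1.35. CDK1, the mitotic kinase that phosphorylates condensin subunits, had 371, 368 and 336 counts with DMSO and 37, 47 and 32 with abemaciclib (log2 fold change −3.34, edgeR adjusted P = 2.58e-15). PLK1, a kinase that phosphorylates condensin II, changed by −4.31. The treated libraries of both stood far below the controls.

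AURKB, the kinase of the chromosomal passenger complex, was close to the limit of detection after treatment. It had 251, 272 and 206 counts with DMSO and 3, 2 and 2 with abemaciclib, a ratio of pooled counts of 115.0 with an exact 95% interval of 55.5 to 287.0 that covers counting error only. MKI67, which coats the surface of mitotic chromosomes, changed by −6.71 on the log2 scale. KIF4A, a chromokinesin that binds condensin I, changed by −2.47. HASPIN and FBXO24 had too few counts for a test.

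TOP2A and TOP2B, the topoisomerases that pass DNA strands through each other, were both measured. TOP2A, an abundant component of mitotic chromosomes, had 6767, 6830 and 6974 counts in the DMSO libraries and 328, 430 and 385 in the abemaciclib libraries, or 2035 against 103.1 CPM on average (log2 fold change −4.30, edgeR adjusted P = 7.93e-23). TOP2B, which is expressed throughout the cell cycle, had 476, 459 and 373 counts with DMSO and 317, 499 and 414 with abemaciclib. Its groups overlapped (log2 fold change −0.23, edgeR adjusted P = 0.182). RB1, whose protein has been found to bind condensin II, fell from 56.2 to 33.9 CPM (log2 fold change −0.73, edgeR adjusted P = 0.00104). MCPH1, an inhibitor of condensin II, did not pass the test (log2 fold change −0.27, edgeR adjusted P = 0.350).

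The cohesin complex and its regulators served as the nearest comparison, since cohesin is the SMC complex that holds sister chromatids together. All 16 genes of that list were tested, of which 9 were lower and 1, MAU2, was higher, beside 13.3% and 12.5% of all genes. The median change was −0.40 (log2). The ATPase arms SMC1A and SMC3 changed by −0.40 (edgeR adjusted P = 0.00422) and −0.76 (edgeR adjusted P = 2.34e-06). RAD21, the cohesin kleisin, fell from 260.8 to 80.3 CPM (log2 fold change −1.70, edgeR adjusted P = 8.11e-12), and was named after its values were seen. Its log2 fold change was lower than those of NCAPG2, NCAPH2, NCAPD3, SMC4 and SMC2. The largest falls in the list were those of PTTG1, ESPL1 and ESCO2. PTTG1 (securin) changed by −5.01, and ESCO2, an acetyltransferase for SMC3, by −3.27. ESPL1 (separase) changed by −3.68, with 55, 55 and 57 counts in the DMSO libraries and 1, 6 and 7 in the abemaciclib libraries. The call of MAU2, a subunit of the cohesin loader (log2 fold change 0.52, edgeR adjusted P = 0.0482), was lost with DESeq2 (adjusted P = 0.0761), which left 0 higher, although 2 were higher at an unadjusted P under 0.05 in edgeR. It was lost as well without DMSO replicate 1 (0.45, edgeR adjusted P = 0.159), DMSO replicate 2 (0.44, adjusted P = 0.184) or abemaciclib replicate 2 (0.32, adjusted P = 0.325).

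Of the 9 genes of the SMC5/6 complex, which acts in DNA repair, 8 were tested, 2 were lower and 0 were higher, and the median change was −0.39 (log2). DESeq2 also gave 0 higher, and 0 were higher at an unadjusted P under 0.05. NSMCE1, a ring finger subunit, fell (log2 fold change −0.49, edgeR adjusted P = 0.00678). SMC6 had 126, 109 and 123 counts with DMSO and 33, 84 and 118 with abemaciclib. Its treated libraries were widely spread, and its call (log2 fold change −0.75, edgeR adjusted P = 0.0266) was lost without any 1 of the 3 DMSO libraries (−0.81 to −0.71, adjusted P 0.0546 to 0.0823) or without abemaciclib replicate 1 (−0.43, adjusted P = 0.162) or 2 (−0.74, adjusted P = 0.0784). Without abemaciclib replicate 3 it was −1.18 (adjusted P = 4.99e-05). SMC5 did not pass (log2 fold change −0.33, edgeR adjusted P = 0.149). These 3 lists are described by counts and medians, against 13.3% of all genes lower, and whether condensin differs from them as a set was not tested.

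**Figure D3:**
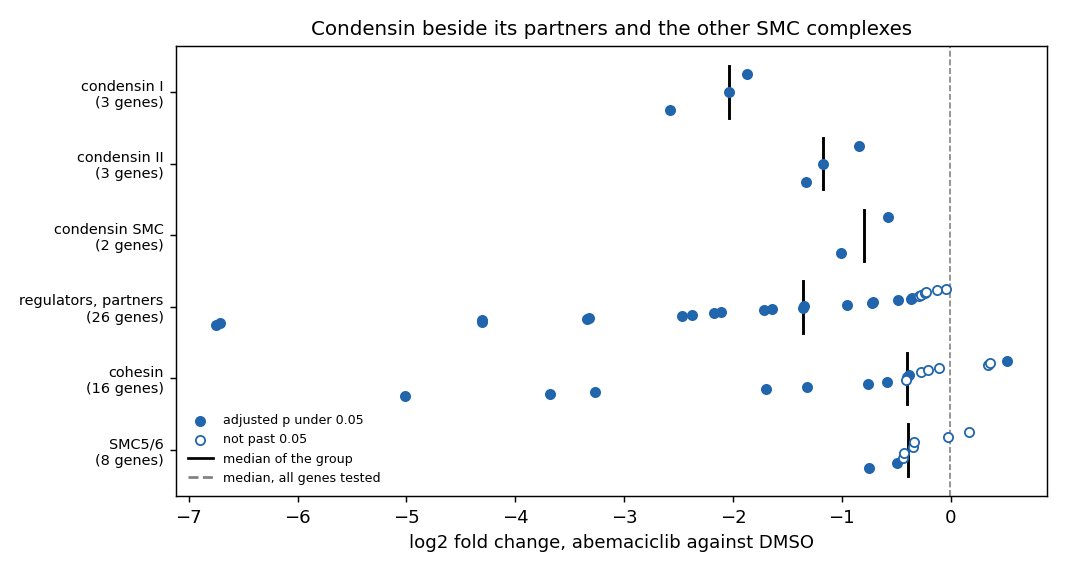
Log2 fold change with abemaciclib against DMSO (horizontal axis) for each tested gene of condensin, of its regulators and partners, of cohesin and of the SMC5/6 complex, with filled points at an edgeR adjusted P under 0.05, a bar at each group's median and a dashed line at the median of all genes tested. The medians run from −2.03 for condensin I and −1.18 for condensin II to −0.40 for cohesin and −0.39 for SMC5/6, and the leftmost point, AURKB, rests on 2 to 3 counts in each treated library.

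Genes whose course over the 6 libraries was most like that of condensin were found by the Euclidean distance between log2 CPM profiles, each centred on its own mean, among 8111 genes with a mean of at least 10 CPM. For the mean profile of the condensin I subunits, the 5 nearest genes outside the members were GMNN (distance 0.273), KIF15 (0.287), ANLN (0.288), HMGN2 (0.289) and CDC25B (0.292). Their log2 fold changes were between −2.35 and −1.98. The members themselves were at distances of 0.322 for NCAPD2, 0.562 for NCAPG and 0.563 for NCAPH. For the mean profile of the condensin II subunits, the nearest were TUBB6 (distance 0.187), CEP152 (0.199), RANGRF (0.213), MFHAS1 (0.237) and GABPB1 (0.256), with log2 fold changes between −1.05 and −1.01. NCAPD3, NCAPH2 and NCAPG2 lay at 0.620, 0.685 and 0.689 from their own mean profile. For both complexes the 5 nearest genes were closer than the subunits, and they were picked as the closest of all genes compared. With 6 libraries in 2 groups, such a distance includes the size of the change between groups.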

How the data were processed

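The 6 RNA libraries of parental ZR-75-1 cells were grouped by the treatment in their labels, which also give replicate numbers. The labels name a Lexogen 3′ mRNA kit. The authors trimmed single-end reads, aligned them to hg38 with STAR 2.7.5b and counted them per gene with featureCounts 2.0.1, and the deposited values are these raw counts, without normalization or a filter. Of 60656 genes, 40227 had 0 counts in every library. The labels do not say whether replicates came from separate cultures, but the study's reporting summary describes independent biological replicates.

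Counts were tested with edgeR 4.0.16 under R 4.3.3 (glmQLFit and glmQLFTest with treatment as the only term, after filterByExpr and TMM scaling), with Benjamini–Hochberg adjustment over 10863 genes. The SE of a log2 fold change was derived from the F statistic (size over root F). The biological coefficient of variation was 13.2%. In simulated data of 3 libraries against 3, the test called 73 of 96 genes changed by 1 on the log2 scale. It called 92 of 93 genes changed by 2, and 8 unchanged genes. Smaller changes were not simulated. Ratios used counts plus 0.5. Limits on 0 counts take 3 counts as the floor, and no molecular identifiers are described. Coordinates come from GENCODE on GRCh38 and promoters from RefSeq.

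The members and lists were chosen with earlier results of these data known. The genes named are the 8 subunits, up to 3 called genes with the largest fall and rise in each further list, 12 genes of interest whatever their values, and the 5 nearest profiles. Genes that overlap a subunit were named for their position. Alternatives were DESeq2 1.42.0, its size factors, library totals, no filter, at least 10 counts in every library, other pseudocounts, a replicate block and each library left out.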

Additional observations from a re-analysis of the deposited data

How the results depend on the processing

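Of 651 values recomputed under alternatives, 618 kept their direction and side of the threshold, or moved within the limits set for them, and 0 reversed. For the paralogue ratios, the smallest exact P possible (0.1) lies above the threshold. Their place among the 618 thus rested on direction alone and does not show that their size held. Without a library, the change of the NCAPD2 to NCAPD3 log2 ratio lay between −1.505 and −1.024. That of NCAPG to NCAPG2 lay between −1.431 and −1.09, and that of NCAPH to NCAPH2 between −1.112 and −0.446. The call of NCAPD3 as lower was lost without DMSO replicate 3, abemaciclib replicate 1 or abemaciclib replicate 2. Its log2 fold change stayed between −1.05 and −0.56 when a library was left out. Leaving out libraries thus gave 7 to 8 subunits called lower. The other 7 subunits were called under every alternative. Leaving out libraries moved the condensin I median between −2.21 and −1.91, the condensin II median between −1.31 and −0.99, the number of SMC5/6 genes lower between 1 and 2 and the number of cohesin genes higher between 0 and 1. That last number was 0 with DESeq2, library totals, at least 10 counts in every library or a replicate block, and 2 with DESeq2's size factors in edgeR. Without a filter the median of the condensin partners was −1.50, since genes with few counts then entered it. Of all genes, 981 to 1412 were higher and 1132 to 1529 lower without a library, and 1139 to 1367 and 1278 to 1506 under the other settings.

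Same-numbered DMSO and abemaciclib libraries did not deviate together (correlations of −0.043, 0.0070 and −0.089), so the numbers were not taken as pairs. A replicate block still called all 8 subunits lower, with NCAPD3 at −0.83. A replicate block cannot alter the mean change of the paralogue ratios, which stayed at −1.24, −1.25 and −0.70 for NCAPD2, NCAPG and NCAPH. Their exact sign-flip test with that block cannot go below P = 0.25. NCAPH and NCAPD3 rested on the fewest reads, at 16 to 88 counts per library.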
